A study of Arabidopsis thaliana with 28 samples.

Results

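The KDM3 group of Arabidopsis thaliana comprises JmjC-domain proteins classed with enzymes that remove methyl groups from lysine 9 of histone H3. Whether each member has that activity was not measured here. The group was taken by locus identifier as 6 genes: IBM1 (AT3G07610), JMJ27 (AT4G00990), JMJ24 (AT1G09060), JMJ26 (AT1G11950), JMJ28 (AT4G21430) and JMJ29 (AT1G62310). These are 6 of the 27416 genes in the count tables, and all 6 were among the 21548 genes with enough counts to be tested. Polyadenylated RNA of closed flower buds was sequenced in 4 genotypes with 2 libraries each. Col was the unmutated control of the Columbia accession, ibm1 a single mutant, ibm1 jmj27 a double mutant, and pds5 a mutant of the cohesin cofactor PDS5. The labels name no alleles, give no plant age or harvest time, and name none of the PDS5 genes that were mutated. They list a long-day and a short-day chamber without assigning libraries to either. No library of a jmj27 single mutant was in the tables, so the jmj27 mutation was seen only together with ibm1.

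Dimethylation of H3 lysine 9 marks silent chromatin in plants and is coupled to DNA methylation at non-CG sites. Methyltransferases such as KYP place the histone mark, the chromomethylase CMT3 binds it and methylates nearby DNA, and the KYP protein is in turn recruited by methylated DNA. IBM1 is the member best known for breaking this loop, since it removes the mark from the bodies of active genes and so keeps them free of non-CG methylation. The other members have been studied less, mainly for flowering time, defence and trichome formation. The series title places the question in male meiosis, which takes place in anthers of closed buds.

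Library totals ran from 19490663 to 26038662 counts, and the members' raw counts from 180 (JMJ27 in ibm1 jmj27 replicate 2) to 2032 (JMJ24 in ibm1 replicate 1), so that counting error alone was at most 7.45% of a value. The 5 floral organ markers AP1, AP3, PI, AG and SEP3 summed to 858 to 1020 CPM (counts per 1000000 library counts) and the 5 meiocyte markers to 23.9 to 40.9 CPM, with none at 0 in any library. Nothing in the labels ties the replicates to different plants. Adjusted p-values, from the edgeR quasi-likelihood test, therefore measure only the spread between these libraries, which may be technical. All means below are over n = 2 libraries, and "passed" means an adjusted p under 0.05 over all genes tested. Fold changes are given with their standard error (SE). The ibm1 jmj27 replicates differed from each other most, with a chi-square per degree of freedom over all genes of 15, against 2.95 in Col, 2.34 in ibm1 and 5.78 in pds5.

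The 2 genes that the mutants are named for were lower in the genotypes so labelled, and transcript of each remained. IBM1 stood at 52.5 and 55.5 CPM in the Col libraries, at 21.2 and 19.9 CPM in ibm1, at 18.8 and 21.4 CPM in ibm1 jmj27, with pds5 at 55.7 and 53.8 CPM. The ibm1 and ibm1 jmj27 libraries thus formed a low group that overlapped with neither Col nor pds5. The level left was 38.1% of that in Col in ibm1 (log2 fold change -1.39 ± 0.0838, adjusted p = 4.98e-08) and 37.1% in ibm1 jmj27 (-1.43 ± 0.0833, adjusted p = 7.55e-09). Adding jmj27 did not move IBM1 beyond its spread, with a change of -0.04 and a 95% interval from -0.23 to 0.15 (adjusted p = 0.757). The same held for pds5 against Col, at 0.02 with an interval from -0.15 to 0.18 (adjusted p = 0.866). IBM1 is known to make a long and a short messenger RNA around a large silenced intron. Counts per gene join both, and also join any transcript made from a disrupted gene, so the values say nothing of functional protein.

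JMJ27, reported to act in defence against bacteria and in flowering time, was the member with the widest range. It stood at 64.0 and 64.7 CPM in Col, 69.1 and 77.7 CPM in ibm1, 8.35 and 8.40 CPM in ibm1 jmj27, and 60.3 and 61.3 CPM in pds5. The ibm1 jmj27 libraries lay far below all others, at 13.0% of Col (-2.94 ± 0.0868, adjusted p = 8.56e-12) and 11.4% of ibm1 (-3.13 ± 0.0865, adjusted p = 1.01e-11). In ibm1 both libraries lay above both Col libraries, yet the difference of 0.19 ± 0.0713 missed the threshold (adjusted p = 0.0596). Against pds5 JMJ27 was higher in ibm1 by 0.27 ± 0.0710 (adjusted p = 0.00714), a call that ended without ibm1 replicate 2 (0.17, adjusted p = 0.139) or pds5 replicate 1 (0.26, adjusted p = 0.0557). The change of -0.08 in pds5 against Col did not pass (adjusted p = 0.368).

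**Figure D1:**
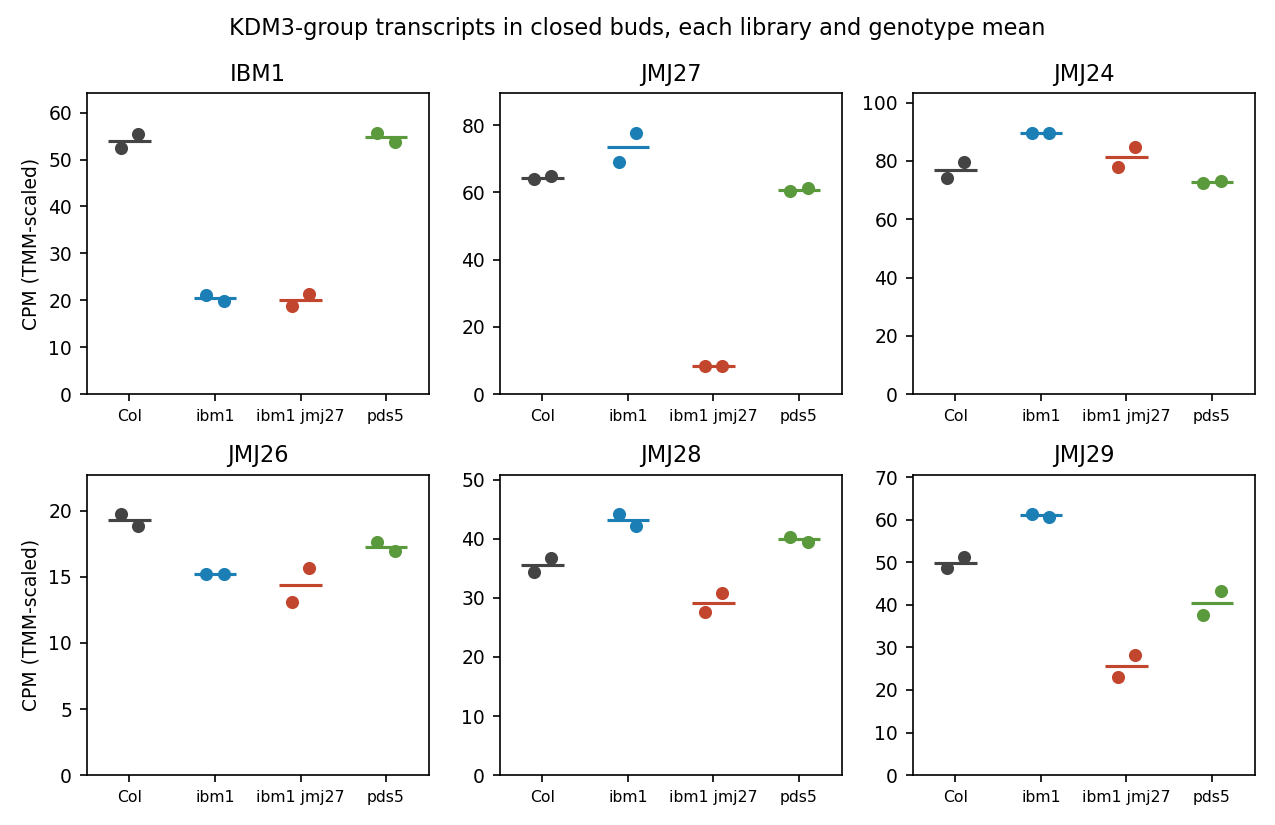
TMM-scaled CPM of the 6 KDM3-group genes in each of the 8 bud libraries (points) with the mean of each genotype (bars); every axis starts at 0. IBM1 is low in ibm1 and ibm1 jmj27, JMJ27 is low in ibm1 jmj27 alone, at 8.35 and 8.40 CPM, and JMJ29 is highest in ibm1 and lowest in ibm1 jmj27.

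Among the 4 members that no genotype is named for, JMJ29 moved most. JMJ29 has been reported to activate GL3, a gene of trichome formation. Its level was 48.7 and 51.2 CPM in Col, 61.4 and 60.7 CPM in ibm1, 23.1 and 28.2 CPM in ibm1 jmj27, and 37.7 and 43.3 CPM in pds5. No genotype overlapped with another, and the order ran from ibm1 through Col and pds5 to ibm1 jmj27. In ibm1 jmj27 JMJ29 fell to 51.1% of Col (-0.97 ± 0.0971, adjusted p = 2.07e-06), a fall reached or exceeded by 9.32% of all genes tested. Against ibm1 it was lower by 2.39-fold (-1.26 ± 0.0963, adjusted p = 2.57e-07), and against pds5 by 1.58-fold (-0.66 ± 0.0972, adjusted p = 0.000128). These falls passed under each of the 14 alternative settings tried. The rise in ibm1 against Col was smaller, at 0.29 ± 0.0921 (adjusted p = 0.0290). It ended under the DESeq2 test (0.27, adjusted p = 0.0996) and whenever any 1 of the 4 Col and ibm1 libraries was left out (0.25 to 0.32, adjusted p = 0.0915 to 0.169). The fall in pds5 against Col, of -0.31 ± 0.0933 (adjusted p = 0.0151), ended without Col replicate 2 (-0.27, adjusted p = 0.105) or pds5 replicate 1 (-0.21, adjusted p = 0.167).

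JMJ28, reported to promote expression of the flowering regulators CO and FLC, also differed in sign between the ibm1 and ibm1 jmj27 comparisons. It stood at 34.3 and 36.7 CPM in Col, 44.2 and 42.1 CPM in ibm1, 27.5 and 30.8 CPM in ibm1 jmj27, and 40.3 and 39.5 CPM in pds5. The ibm1 jmj27 libraries were the lowest and the ibm1 libraries the highest, with no overlap between genotypes. The difference between ibm1 jmj27 and ibm1 was -0.57 ± 0.0804 (adjusted p = 7.65e-05), and it passed under all 14 settings. Against Col it was higher in ibm1 by 0.28 ± 0.0797 (adjusted p = 0.0164), a call lost under the DESeq2 test (0.26, adjusted p = 0.0948) and when Col replicate 1 or either ibm1 library was left out (0.23 to 0.30, adjusted p = 0.0715 to 0.140). It was lower in ibm1 jmj27 by -0.29 ± 0.0813 (adjusted p = 0.00948), which ended without Col replicate 2 (-0.24, adjusted p = 0.0936) or ibm1 jmj27 replicate 1 (-0.21, adjusted p = 0.0523). The neighbours in the order, ibm1 and pds5, did not pass (0.12 ± 0.0782, adjusted p = 0.253), nor did pds5 and Col (0.16 ± 0.0792, adjusted p = 0.0999).

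JMJ26 was low in ibm1 and ibm1 jmj27 alike. Its counts gave 19.8 and 18.8 CPM in Col, 15.2 and 15.2 CPM in ibm1, 13.1 and 15.6 CPM in ibm1 jmj27, and 17.6 and 16.9 CPM in pds5. Both IBM1-reduced genotypes lay below Col and pds5 without overlap. The log2 fold change was -0.43 ± 0.107 in ibm1 jmj27 (adjusted p = 0.00464), a fall kept under all 14 settings. In ibm1 JMJ26 fell by 0.34 ± 0.107 (adjusted p = 0.0276), with that call ending under the DESeq2 test (-0.36, adjusted p = 0.0782) and when any 1 of the 4 Col and ibm1 libraries was left out (-0.38 to -0.31, adjusted p = 0.0813 to 0.147). Between ibm1 jmj27 and ibm1 the difference was -0.09 with a 95% interval from -0.32 to 0.15, and between pds5 and Col -0.16 with an interval from -0.38 to 0.07. Neither passed.

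JMJ24, which carries a RING domain and has been reported to mark CMT3 for degradation, varied least. The libraries held 74.0 and 79.7 CPM in Col, 89.5 and 89.7 CPM in ibm1, 77.8 and 84.9 CPM in ibm1 jmj27, and 72.3 and 73.3 CPM in pds5. Its whole range over the 8 libraries was 0.31 on the log2 scale, against 1.41 for JMJ29 and 3.20 for JMJ27. The ibm1 libraries were highest, by 0.22 ± 0.0715 over Col (adjusted p = 0.0315) and by 0.30 ± 0.0712 over pds5 (adjusted p = 0.00384). The first of these calls ended with DESeq2 size factors (0.20, adjusted p = 0.0538), under the DESeq2 test (0.20, adjusted p = 0.122), and without any 1 of the Col, ibm1 or pds5 libraries (0.17 to 0.27, adjusted p = 0.0532 to 0.247). The second was kept under all 14 settings. No difference between neighbours in the order of its levels, from ibm1 through ibm1 jmj27 and Col to pds5, passed (adjusted p = 0.126, 0.365 and 0.382).

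In counts, 3 members rose and 2 fell in ibm1 against Col, where 31.0% of all genes tested passed (16.5% higher and 14.5% lower). Against the same Col libraries 0 members rose and 5 fell in ibm1 jmj27, where 50.5% of genes passed (26.7% higher and 23.8% lower). In pds5 0 rose and 1 fell, where 49.0% passed (25.8% higher and 23.2% lower). The falls counted include IBM1 in ibm1, and IBM1 and JMJ27 in ibm1 jmj27, the genes these mutants are named for. Those falls say nothing of the group as a whole. Apart from them, JMJ26 fell in ibm1, and JMJ26, JMJ28 and JMJ29 fell in ibm1 jmj27. The medians and the counts against ibm1 and pds5 below include the named genes as well. The 3 comparisons share the Col libraries. The median log2 fold change of the 6 members was 0.20, -0.70 and -0.08 in the 3 mutants, and that of all genes was 0.02, 0.03 and 0.00. Between ibm1 jmj27 and ibm1, where 45.5% of genes passed (22.7% higher and 22.8% lower), 3 members were lower, namely JMJ27, JMJ29 and JMJ28, and 0 were higher. In ibm1 jmj27 against pds5, where 39.9% passed (19.1% higher and 20.7% lower), 4 were lower and 0 higher. In ibm1 against pds5, where 44.5% passed (21.5% higher and 22.9% lower), 3 were higher, namely JMJ27, JMJ24 and JMJ29, and IBM1 was lower. The ibm1 count rests on small changes, since apart from that of IBM1 each ended in 1 or more settings. It was 1 under the DESeq2 test, 1 in the fits that lacked Col replicate 1 or ibm1 replicate 2, and 2 in those that lacked the other library of either genotype. The count in pds5 was 0 without Col replicate 2 or pds5 replicate 1, and 2 without either ibm1 jmj27 library, where JMJ28 also passed at 0.16.

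**Figure D2:**
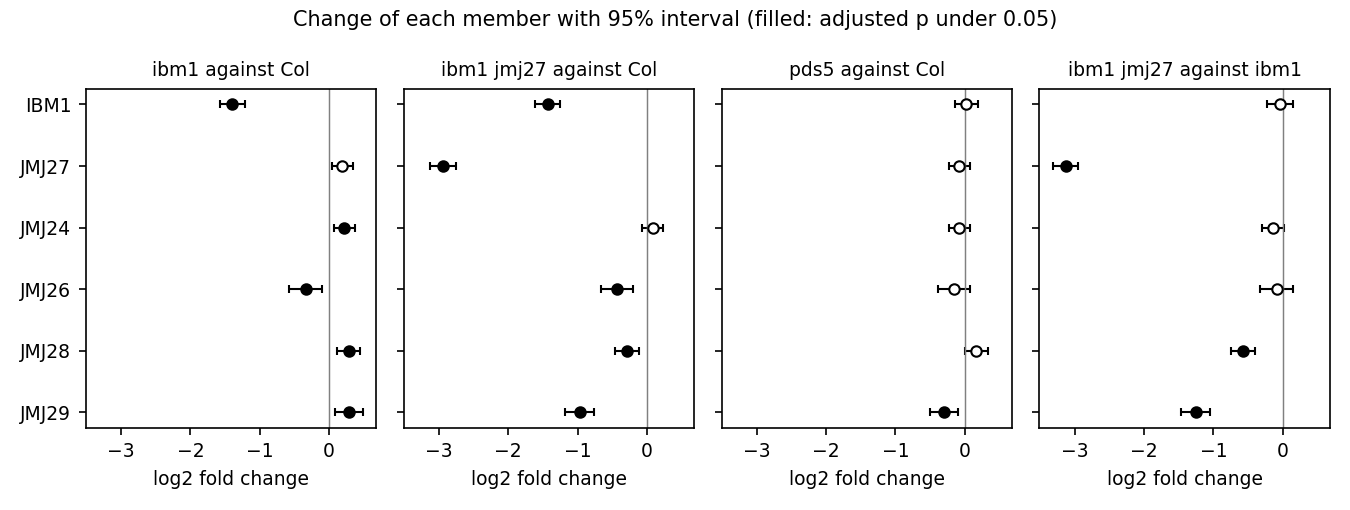
Log2 fold change of each KDM3-group member in 4 comparisons, with 95% intervals from the quasi-likelihood fit; filled points have an adjusted p under 0.05. JMJ28 and JMJ29 lie right of 0 in ibm1 and left of 0 in ibm1 jmj27, and IBM1 lies near 0 in pds5 and between ibm1 jmj27 and ibm1.

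The summed counts of the group did not follow IBM1 alone. The 6 members together held 293 and 307 CPM in Col, 301 and 305 CPM in ibm1, 169 and 189 CPM in ibm1 jmj27, and 284 and 288 CPM in pds5. The ibm1 sum thus lay within the range of Col, at 101% of its mean, whereas ibm1 jmj27 was at 59.7% and pds5 at 95.3%. Without IBM1 and JMJ27, the other 4 members summed to 177 and 186 CPM in Col, 210 and 208 CPM in ibm1, 142 and 160 CPM in ibm1 jmj27, and 168 and 173 CPM in pds5. On this sum ibm1 lay above both Col libraries, at 115% of the Col mean, and ibm1 jmj27 below them, at 82.9%. These sums weight genes by transcript length as well as abundance and carry no test. The makeup of the sum moved accordingly. IBM1 took 18.0% ± 0.140 (SD) of it in Col, 6.79% ± 0.363 in ibm1 and 11.2% ± 0.119 in ibm1 jmj27, and JMJ24 took 25.6% ± 0.543 in Col, 29.6% ± 0.293 in ibm1 and 45.5% ± 0.924 in ibm1 jmj27.

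**Figure D3:**
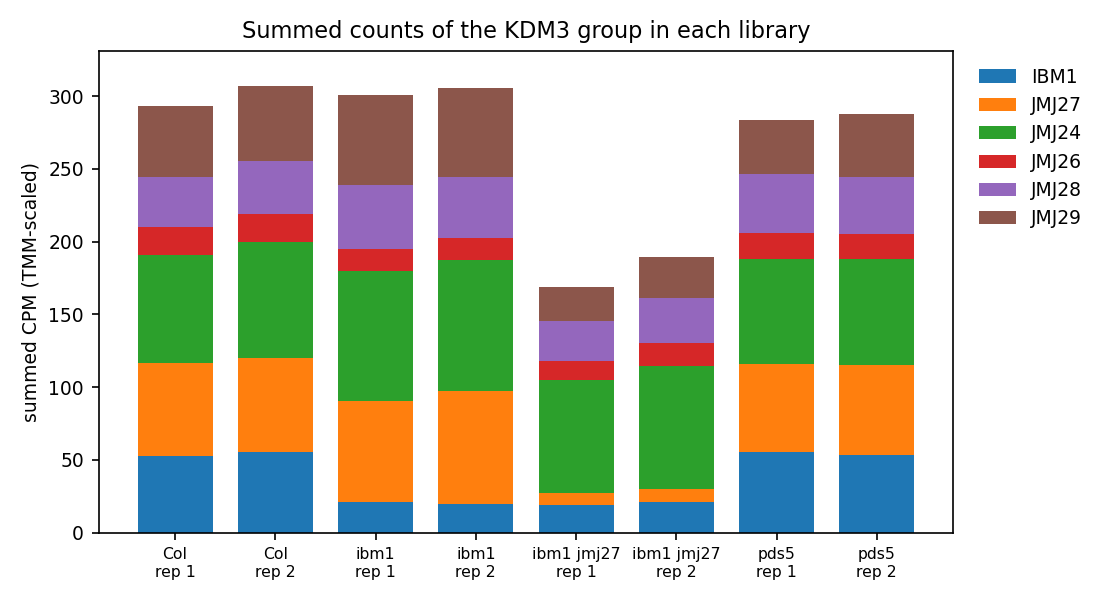
Summed TMM-scaled CPM of the 6 members in each library, stacked by gene from 0. The ibm1 bars reach 301 and 305 CPM, level with Col, and the ibm1 jmj27 bars 169 and 189 CPM.

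Transcripts of clock genes and of tissue markers also differed between these genotypes. All 8 listed clock genes passed in each mutant against Col, and the morning gene LHY was at 2.93 ± 0.111 CPM (SD) in Col, 19.6 ± 1.32 in ibm1, 493 ± 12.4 in the double mutant and 602 ± 7.32 in pds5. The 5 late pollen markers summed to 197 to 212 CPM in Col, 65.9 to 67.1 in ibm1, 0.272 to 0.420 in ibm1 jmj27 and 207 to 251 in pds5. All 5 fell in ibm1 and in ibm1 jmj27, and ADF7, an actin-depolymerising factor of pollen, was at 0 in both ibm1 jmj27 libraries. Of the 5 tapetum markers, 3 fell in ibm1, 2 in the double mutant and 5 in pds5, with sums of 736 to 811 CPM in Col, 465 to 469 in ibm1, 420 to 671 in ibm1 jmj27 and 264 to 371 in pds5. Green tissue markers summed to 7131 to 7191 CPM in Col, 11200 to 11600 in ibm1, 14530 to 15170 in ibm1 jmj27 and 10380 to 10440 in pds5, with 5, 5 and 4 of the 5 higher. They moved unequally, with LHCB1.1 averaging 310 CPM in Col and 1701 in ibm1, and RBCS1A 5716 and 6786. Of the 5 meiocyte markers, 1, 4 and 3 fell in ibm1, ibm1 jmj27 and pds5. Over all genes tested, 14.5%, 23.8% and 23.2% were lower and 16.5%, 26.7% and 25.8% higher, in the same order. Counts of 1 or 2 in a list of 5 thus set no marker list apart from other genes. In whole buds, fewer cells of a type and less RNA per cell cannot be told apart, and the part of clock state and tissue makeup in the changes of the members was not tested. The pds5 libraries, in which LHY was high, no late pollen marker fell and the 5 tapetum markers fell, held JMJ29 at 81.0% and JMJ28 at 112% of Col. Whether any of these differences bears on either level was not tested.

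Genes linked to the same mark or to the DNA methylation coupled to it, or that regulate the IBM1 transcript, changed in both directions. They were listed together with AT1G05970. Of 12 listed genes, all tested, 1 rose and 3 fell in ibm1, 2 rose and 5 fell in ibm1 jmj27, and 2 rose and 6 fell in pds5, with medians of -0.01, -0.16 and -0.23. Thus 4, 7 and 8 of 12 passed, where 31.0%, 50.5% and 49.0% of all genes did. The first count was 2 when Col replicate 1 or ibm1 replicate 2 was omitted, and the third was 4 on omitting Col replicate 1 or pds5 replicate 2. SUVR5, a SET-domain protein that directs H3K9 dimethylation, stood at 59.1 and 61.7 CPM in Col, 37.5 and 39.3 in ibm1, 43.3 and 46.0 in ibm1 jmj27, and 51.1 and 54.0 in pds5. Its change was -0.66 ± 0.0719 in ibm1 (adjusted p = 1.36e-05) and -0.44 ± 0.0708 in ibm1 jmj27 (adjusted p = 0.000172), both kept under all 14 settings. IBM2, which is needed to make the full-length IBM1 messenger, fell by 0.69 ± 0.142 in ibm1 (adjusted p = 0.00247), from 12.1 and 10.8 CPM in Col to 7.27 and 6.93 CPM. It was at -0.16 in ibm1 jmj27, where it did not pass (adjusted p = 0.350). EDM2, which acts with IBM2 on that messenger, was at 0.08 in ibm1 and fell by 0.26 in ibm1 jmj27 (adjusted p = 0.00973), a call that ended without Col replicate 2 (-0.22, adjusted p = 0.0917). The methyltransferase genes SUVH5 and SUVR4 fell in ibm1 jmj27 by 0.77 ± 0.132 and 0.76 ± 0.145, and the chromomethylase gene CMT3 by 0.38 ± 0.0694. SUVH9, whose product recruits RNA polymerase V to methylated DNA, rose there by 0.42 ± 0.0849 (adjusted p = 0.00103). These 4 changes were kept under all 14 settings. The other gene counted as rising there is AT1G05970, which the reference leaves unnamed (0.44 ± 0.155, adjusted p = 0.0296). That call ended under the DESeq2 test, with the pair fitted alone, and with Col replicate 2, ibm1 jmj27 replicate 1 or pds5 replicate 2 omitted (0.34 to 0.41, adjusted p = 0.0547 to 0.206). SUVH9, CMT3, SUVH5 and SUVR4 also passed in pds5, at 0.55, -0.36, -0.55 and -0.52 in that order. Of these SUVH5 ended with Col replicate 1 omitted (-0.41, adjusted p = 0.0519), and SUVR4 with Col replicate 1 (-0.39, adjusted p = 0.0988) or pds5 replicate 2 (-0.47, adjusted p = 0.0605) omitted. KYP did not pass in ibm1 (-0.14, adjusted p = 0.170) or ibm1 jmj27 (-0.06, adjusted p = 0.546), and fell by 0.32 in pds5 (adjusted p = 0.00325).

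Genes reported as targets of individual members changed in both directions. The list pools targets of different members, and no genotype is named for JMJ24, JMJ28 or JMJ29. The mix of directions therefore says nothing of any single member. Of 12 listed genes, 2 rose and 4 fell in ibm1, 3 rose and 3 fell in ibm1 jmj27, and 4 rose and 3 fell in pds5, with medians of -0.44, -0.02 and -0.05. Thus 6, 6 and 7 of 12 passed, beside 31.0%, 50.5% and 49.0% of all genes. The 6 calls in ibm1 became 3 on omitting Col replicate 1 and 2 on omitting ibm1 replicate 2, and the 6 in ibm1 jmj27 became 3 on omitting either Col library. DCL3 and RDR2, which make small RNAs for DNA methylation and are reported to need IBM1, both fell in ibm1. ER and ERL1, also listed as IBM1 targets, did not pass there (-0.02, adjusted p = 0.890, and -0.19, adjusted p = 0.201). ERL2, listed likewise, rose by 0.20 in ibm1 (adjusted p = 0.0456), a call that ended under 10 of the 14 settings. DCL3 stood at 117 and 128 CPM in Col, 72.5 and 72.9 in ibm1, 47.9 and 65.1 in ibm1 jmj27, and 54.6 and 67.5 in pds5. The mutants thus held 59.4%, 46.1% and 49.9% of the Col level, with adjusted p = 0.00344 in ibm1, 0.000161 in the double mutant and 0.000310 in pds5. IBM1 did not pass in pds5. RDR2 held 17.5 and 15.9 CPM in Col, 10.5 and 10.1 in ibm1, 14.0 and 14.2 in ibm1 jmj27, and 16.1 and 15.3 in pds5. The change was -0.70 ± 0.109 in ibm1 (adjusted p = 0.000292). From ibm1 to ibm1 jmj27 it was 0.46 ± 0.110 (adjusted p = 0.00399), and IBM1 averaged 20.6 and 20.1 CPM in these genotypes. What caused the DCL3 and RDR2 changes was not tested.

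BNS, the gene whose methylation gave IBM1 its name, was also lowest in ibm1. Its libraries held 5.36 and 4.82 CPM in Col, 3.26 and 2.56 in ibm1, 5.16 and 5.41 in ibm1 jmj27, and 4.47 and 5.07 in pds5. The change was -0.80 ± 0.196 in ibm1 (adjusted p = 0.00711), which ended without Col replicate 1 (-0.72, adjusted p = 0.0587) or ibm1 replicate 2 (-0.65, adjusted p = 0.0812), and 0.06 ± 0.181 in ibm1 jmj27 (adjusted p = 0.814). Between ibm1 jmj27 and ibm1 it was 0.86 ± 0.193 (adjusted p = 0.00270). IBM2, above, was likewise higher in ibm1 jmj27 than in ibm1, by 0.53 ± 0.142 (adjusted p = 0.00832), a call that ended without ibm1 replicate 2 (0.47, adjusted p = 0.0724) or ibm1 jmj27 replicate 1 (0.41, adjusted p = 0.0503).

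FLC, a repressor of flowering reported to be activated by JMJ28 and kept up by JMJ27, followed the order of JMJ28 and JMJ29 in 3 genotypes but not in pds5. It stood at 12.2 and 14.0 CPM in Col, 16.9 and 18.2 in ibm1, 7.03 and 8.77 in ibm1 jmj27, and 4.74 and 4.21 in pds5. The fall was 0.73 ± 0.142 in ibm1 jmj27 (adjusted p = 0.000731) and 1.55 ± 0.150 in pds5 (adjusted p = 1.51e-06). The rise of 0.42 ± 0.134 in ibm1 (adjusted p = 0.0281) ended under the DESeq2 test (0.40, adjusted p = 0.107) and when any 1 of the 4 Col and ibm1 libraries was left out (0.33 to 0.53, adjusted p = 0.0586 to 0.207). CO is the other reported JMJ28 target and is also listed under JMJ27. It held 4.44 and 4.13 CPM in Col, 2.51 and 1.87 in ibm1, 2.87 and 2.43 in ibm1 jmj27, and 5.34 and 4.82 in pds5. It fell in ibm1, where JMJ28 was higher (-0.96 ± 0.221, adjusted p = 0.00482), a call that ended with ibm1 replicate 2 omitted (-0.78, adjusted p = 0.0610). In ibm1 jmj27 CO fell by 0.69 ± 0.212 (adjusted p = 0.0156), which ended with either Col library or ibm1 jmj27 replicate 2 omitted (-0.74 to -0.58, adjusted p = 0.0502 to 0.0796). QQS, a starch-related gene prone to silencing and reported to depend on JMJ24, held 1.69 and 2.22 CPM in Col, 2.47 and 2.80 in ibm1, 26.1 and 21.8 in ibm1 jmj27, and 2.16 and 1.39 in pds5. The ibm1 jmj27 libraries stood apart, by 3.60 ± 0.201 over Col (adjusted p = 4.84e-09), while JMJ24 was at 0.08 in that comparison and did not pass. GL3, the reported target of JMJ29, was low, at 0.590 to 2.48 CPM over the 8 libraries, and did not pass against Col in ibm1 (adjusted p = 0.109), ibm1 jmj27 (0.235) or pds5 (0.985). Between ibm1 jmj27 and ibm1, where JMJ29 was lower, GL3 was higher by 1.57 ± 0.427 (adjusted p = 0.00865), a call that ended with ibm1 replicate 2 (1.39, adjusted p = 0.0791) or ibm1 jmj27 replicate 1 (1.14, adjusted p = 0.0677) omitted. WRKY25, listed under JMJ27, rose in ibm1 jmj27 by 0.65 (adjusted p = 0.0447), a call that ended under 10 of the 14 settings. It rose by 1.615 in pds5 (adjusted p = 7.29e-05) and was at 0.03 in ibm1 (adjusted p = 0.953). PR1, a defence marker reported under JMJ27, had 202 and 182 counts in pds5 against 3 and 1 in Col and passed there (adjusted p = 4.81e-08). With 5 and 2 counts it did not pass in ibm1 jmj27 (adjusted p = 0.554). Whether the level of any member bears on FLC, CO, QQS, GL3, WRKY25 or PR1 was not tested.

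**Figure D4:**
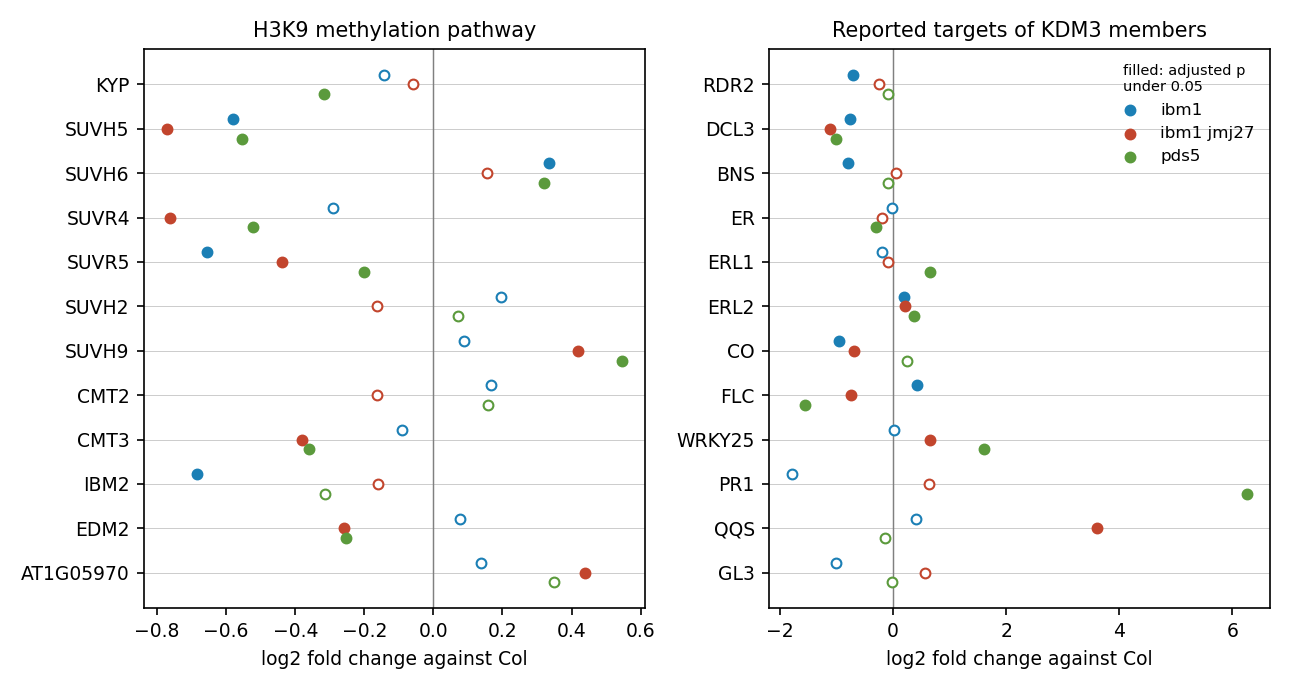
Log2 fold change against Col of 12 genes of the H3K9 methylation pathway and 12 reported targets of KDM3 members in ibm1 (blue), ibm1 jmj27 (red) and pds5 (green); filled points have an adjusted p under 0.05. DCL3 lies left of 0 in all 3 mutants, RDR2 and BNS are filled in ibm1 alone, and QQS in ibm1 jmj27 alone.

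Genes beside the members were read from the same fit. Of 24 genes, the nearest 2 on each side of each member in the RefSeq order, 13 were tested. Among these 1 rose and 1 fell in ibm1, 3 rose and 6 fell in ibm1 jmj27, and 5 rose and 5 fell in pds5, where 31.0%, 50.5% and 49.0% of all genes passed. AT3G07620, next to IBM1, averaged 2.68 ± 0.250 CPM (SD) in Col, 1.51 ± 0.0844 in ibm1, 0.109 ± 0.0441 in the double mutant and 2.49 ± 0.355 in pds5. It fell in ibm1 jmj27 (adjusted p = 1.24e-06), kept under all 14 settings, where 2 and 3 counts remained against 49 and 67 in Col, a ratio of 25.4 with a 95% counting interval from 10.6 to 79.8. In ibm1 it fell by 0.83 ± 0.282 (adjusted p = 0.0393). The latter call ended under the DESeq2 test (-0.85, adjusted p = 0.145) and without any 1 of the Col, ibm1 or pds5 libraries (-0.92 to -0.73, adjusted p = 0.0514 to 0.202). Between ibm1 jmj27 and ibm1 AT3G07620 was at -3.765 ± 0.4755 (adjusted p = 2.84e-05), and IBM1 averaged 20.1 and 20.6 CPM in these genotypes. The summed late pollen markers were also lower in ibm1 than in Col, and lowest in ibm1 jmj27. What caused the fall of AT3G07620 was not tested. AT4G01000, next to JMJ27, was at -0.04 ± 0.0725 in ibm1 jmj27 (adjusted p = 0.634), while JMJ27 itself fell to 13.0%. CNGC13, the second gene on that side, was low, at 1.57 CPM in Col and 3.46 in ibm1 jmj27. It rose by 1.13 ± 0.257 in ibm1 jmj27 (adjusted p = 0.00238) and by 1.12 ± 0.256 in pds5 (adjusted p = 0.0025). On 1 side of JMJ24 the genes AT1G09040 and AT1G09050 fell by 1.12 ± 0.168 and 0.98 ± 0.124 in ibm1 jmj27, where JMJ24 did not pass. They were also lower in pds5, at -0.77 and -0.43. On the other side SRC2 rose in ibm1 jmj27 by 0.46 ± 0.0718 (adjusted p = 0.000127), and BIP3 did not pass there (-0.06, adjusted p = 0.899).

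By closeness of profile, the root-mean-square difference of mean-centred log2 CPM over the 8 libraries, JMJ29 lay nearest to LSF1 (0.106), ATCTH (0.115) and TIC (0.137). LSF1 held mean levels of 26.9 CPM in Col, 36.1 in ibm1, 14.1 in the double mutant and 22.8 in pds5. That it shares the order of JMJ29 follows from being chosen for closeness over the same libraries. LSF1 acts in starch breakdown and TIC in the circadian clock. JMJ28 was nearest to MRH1, DAW1 and UMAMIT47 (0.0669 to 0.0704), JMJ26 to MBD9, LTL1 and PDIL1-4 (0.0460 to 0.0541) and JMJ24 to CEST, FYPP3 and BPS1 (0.0366 to 0.0432). The closest to IBM1 were MEF7 (0.159), IAA1 (0.163) and UGE3 (0.163), with MEF7 at -1.63 in ibm1, -1.44 in the double mutant and -0.11 in pds5. JMJ27 was matched less closely, by GXM3 (0.166), IRE (0.187) and SBT5.4 (0.304). Genes of narrow range over the libraries, as JMJ24 and JMJ26, have small distances by construction.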

How the data were processed

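The submitters' processing notes list TAIR10 as the build and name DESeq2, HISAT2 and Subread as the authors' tools, without versions. The sources used here give no annotation, strand setting or rule for multi-mapped reads, so overlapping and antisense genes and near-identical copies cannot be told apart. The authors deposited 3 tables of unnormalized counts by gene, whose Col columns were the same, and 0 value columns were left unmapped. The 20 chromatin samples of the series were not analysed here.

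The 8 libraries were fitted together in edgeR 4.0.16 (R 4.3.3), with filterByExpr, TMM scaling and the robust quasi-likelihood test with 1 mean for each genotype, leaving 4 residual degrees of freedom. P-values were adjusted by the Benjamini-Hochberg method over 21548 genes. The SE is the size of the log2 fold change divided by the root of its F, and CPM are TMM-scaled. The steps were tested on simulated data in which few genes changed and each gene had the same spread in all genotypes. That test does not cover changes as widespread as those here, or the unequal replicates of ibm1 jmj27. RefSeq's TAIR10.1 table gave names and gene order only, since its build differs. It names IBM1 but carries no JMJ symbol for the other members, which were matched by locus. One listed H3K9 pathway gene, AT1G05970, is unnamed there. Levels are not corrected for transcript length, so shares of a sum are read only between genotypes.

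The members and lists were chosen with earlier results of these data known. Named genes are the members, the listed genes, the markers, the nearest 2 genes on each side, and per member the 3 closest profiles among genes with a RefSeq symbol and a mean log2 CPM (prior count 2) of at least 1. Alternatives were DESeq2 size factors, no filter, a replicate block, the Wald test of DESeq2 1.42.0, separate fits of the compared genotypes, no robust estimation, a threshold of 0.01 and each library left out. The planned motif search in promoters was not run here.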

Additional observations from a re-analysis of the deposited data

How the results depend on the processing

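Of 36 member comparisons, 22 passed. Of these 15 kept the call under all 14 settings run on them and 7 lost it under at least 1, while 5 of the 14 that missed passed under some setting. No called change of a member turned its sign. The number of members called in ibm1 against Col was 1 at an adjusted p under 0.01 and 1 under the DESeq2 test, and in pds5 against Col 0 at 0.01 and 2 with the pair fitted alone. With 1 library left out at a time these counts ran from 1 to 6 and from 0 to 2. There the genotype reduced to 1 library is assumed to vary like the others, although the replicates of ibm1 jmj27 differed far more (chi-square per degree of freedom 15) than those of ibm1 (2.34). All genes called in ibm1 against Col came to 4017 at 0.01 and to 3709 to 9015 with 1 library left out, those in ibm1 jmj27 against pds5 to 5550 at 0.01, those in ibm1 jmj27 against ibm1 to 6451 to 10955 and those in ibm1 against pds5 to 6348 to 11653. For ibm1 jmj27 against Col, reported targets numbered 3 at 0.01 and 3 to 6 with 1 library left out. In the same way the pathway list ran from 2 to 5 in ibm1 and 4 to 11 in pds5, and reported targets from 2 to 7 in ibm1. The cause was not tested. Listed genes and neighbours were run under the same settings, chosen after seeing the data.

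The labels do not say whether same-numbered libraries share more than a number. Their deviations correlated at -0.00671 to 0.101 across pairs of genotypes, highest for ibm1 jmj27 with pds5. Such a value over all genes cannot exclude a shared batch that moves few genes. With a replicate block 7027 genes passed in ibm1 against Col, and JMJ27 passed there at 0.19 (adjusted p = 0.0492). No other member's call changed under the block. Depth limits the low genes such as GL3, PR1 and AT3G07620 more than the members.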
